A study of Bos taurus with 8 samples.

Results

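DNA replication and mitosis genes of bovine embryo cells are described here: 47 of the 18825 genes in the expression table. They were chosen by name, with earlier results of these data known. They comprise 20 replication genes, 19 mitosis genes and 8 genes that act around G1. The replication genes include the helicase subunits MCM2 to MCM7 and the loading and firing factors CDC6, CDT1, CDC45, GINS1 and GINS2. They also include the sliding clamp PCNA with its loaders RFC2 and RFC4, and the polymerase, primer and flap enzymes POLA1, PRIM1 and FEN1. The nucleotide enzymes RRM1, RRM2 and TYMS complete them. The mitosis genes are CDK1, CCNA2, CCNB1, CCNB2, AURKA, AURKB, PLK1, BUB1, BUB1B, CDC20, TOP2A, MKI67, CENPE, CENPF, KIF11, KIF20A, NUSAP1, TPX2 and BIRC5. The G1 genes are CCNE1, CCNE2, CDK2, CCND1, CCND2, CCND3, CDKN1B and CDKN1C. All 47 were in the table, and all 47 passed the filter on low values.

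The study measured polyadenylated RNA in single cells of wildtype Bos taurus embryos at the morula and blastocyst stages, and 286 cells from 6 libraries, numbered as replicates 1 to 6, were used. The cell table gives each cell a class: Morula (day 6 after fertilization, 58 cells), EB (day 7, 39 cells), MB ICM (day 8, 51 cells), MB TE (day 8, 37 cells), LB EPI (day 9, 45 cells), LB PE (day 9, 25 cells) and LB TE (day 9, 31 cells). In these class names TE stands for trophectoderm (the outer cells that go on to form placenta), ICM for inner cell mass, EPI for epiblast (the source of the embryo proper) and PE for primitive endoderm, or hypoblast, as the field uses them. All groups are untreated wildtype cells, a library is a pool of barcoded cells, and the labels name no single embryo, so the library was the replicate.

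Before a cell divides, origins are licensed in G1 by loading the MCM helicase with CDC6 and CDT1. CDC45 and the GINS complex then switch the helicase on, PCNA holds the polymerases on DNA, and ribonucleotide reductase and thymidylate synthase supply nucleotides. In mitosis CDK1 with its cyclins, Aurora kinases and PLK1 drive entry, BUB1 and BUB1B hold the checkpoint until chromosomes are attached, and TOP2A untangles the sister chromatids. Cleavage-stage embryos divide with little G1, and stored maternal transcripts include many mitotic mRNAs, which gives these genes their interest in the days up to blastocyst formation.

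Levels are CPM, reads of the gene per 1000000 assigned reads of a cell, averaged over the cells of 1 library and class where it held at least 3. CPM are not divided by transcript length, so levels were compared within a gene and not between genes. The 286 cells held 48628984 reads, with a median of 150770.5 per cell (2633 to 747345), and LB PE was the shallowest class with a median of 39210. The 16 averages came from replicates 4 and 6 for Morula, 4 for EB, 1, 2 and 5 for MB ICM, 1, 2 and 3 for MB TE, 2, 3 and 5 for LB EPI, and 3 and 5 for LB PE and LB TE. The averages of days 6 and 7 therefore share no library with those of days 8 and 9 (only 2 EB cells of replicate 1, too few for an average, lie outside replicates 4 and 6), and across that step the effects of age and library cannot be told apart. All 48 distinct cell barcodes occur in more than 1 library, and no 2 cells had identical values. The classes carried their labelled markers. The summed trophectoderm list of 8 genes was 30736 to 58224 CPM in MB TE and 32456 to 43082 in LB TE, and at most 6497 elsewhere. The summed epiblast list of 8 genes was 2440 to 2926 CPM in LB EPI and at most 1140 elsewhere. The 9 hypoblast markers summed to 5928 to 6482 CPM in LB PE, against 3987 to 4379 in MB ICM, 3234 in EB and at most 1707 elsewhere, although SOX17, one of the defining factors, was at 0 in both of its libraries. Markers of cumulus, blood and sperm cells summed to at most 101 CPM outside Morula replicate 6, where the cumulus list reached 857. Most of that sum was 1 of the 9 listed genes, INHBA, which had a mean of 405 CPM over the 2 Morula libraries (SD 571). The 7 fibroblast markers summed to 49.4 to 1102 CPM, highest in LB PE. The part of other cells in the results was not tested. The classes were given to these same cells by the authors, and how is not stated in the sources used here.

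Ranked by class mean over the 7 classes, replication and mitosis genes most often peaked in different classes. Of the 20 replication genes, 10 had their highest class mean in LB EPI, 9 their lowest in MB TE and 4 their lowest in LB TE. Of the 19 mitosis genes, 8 had their highest mean in Morula and 7 in EB, and 13 had their lowest in LB TE. These are counts of ranks over class means, with no test. The share of all genes with the same ranks was not counted, so they are not read as a trait of the members. EB rests on 1 library average. The Morula mean of NUSAP1 (399 CPM, against 368 in LB EPI) includes 8 cells of replicate 6 described below, and the other 37 cells there averaged 325 CPM. The heatmap shows the levels of members by library.

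**Figure D1:**
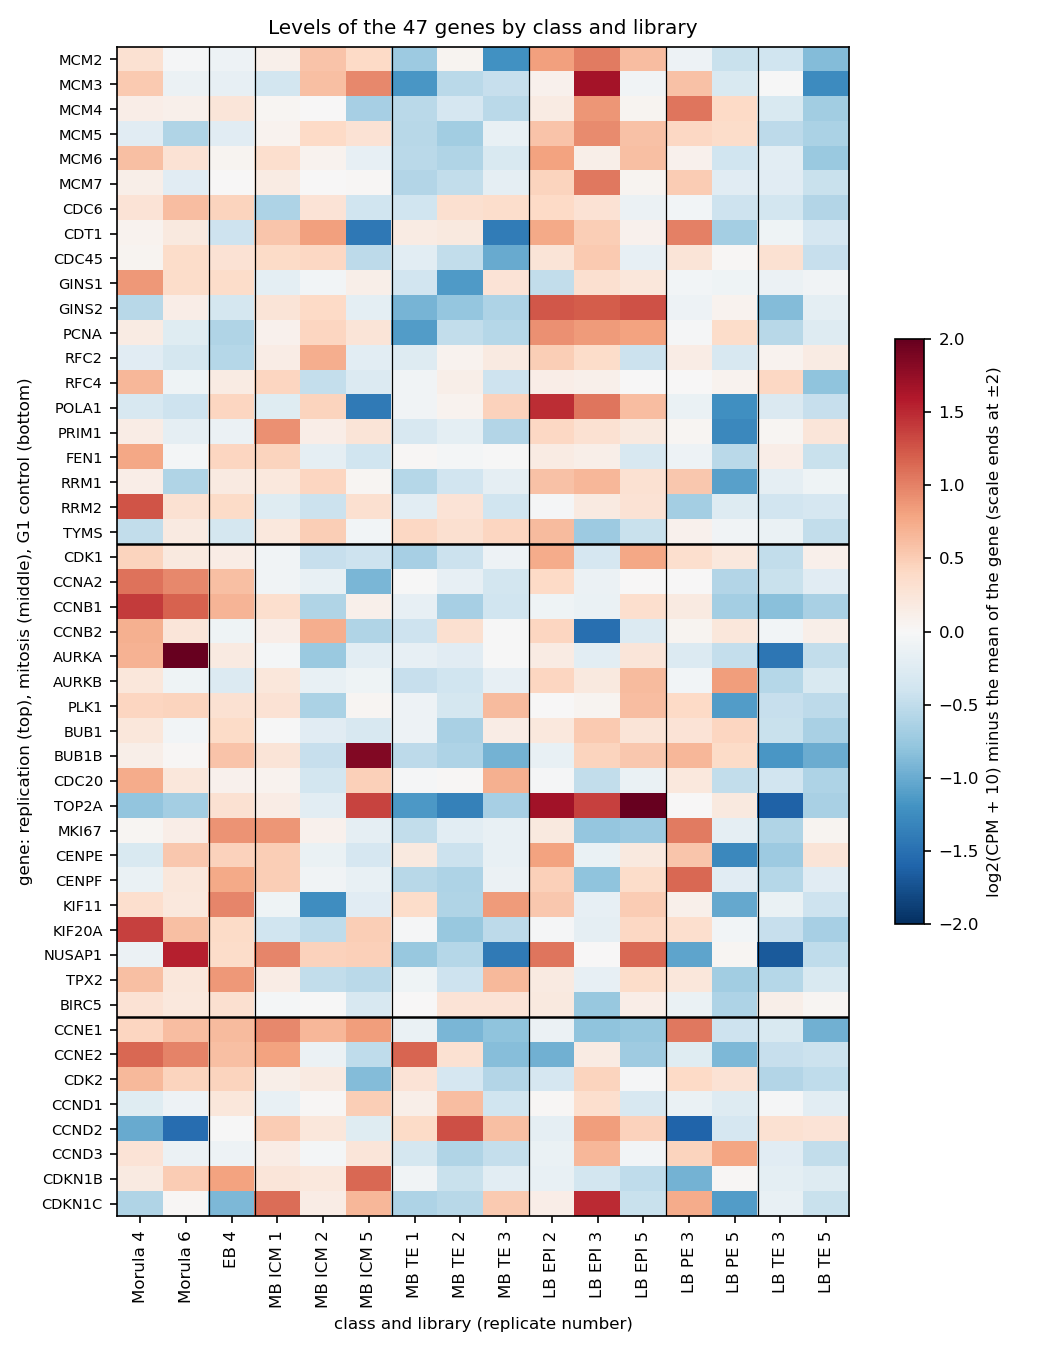
Level of each of the 47 genes (rows, grouped as replication, mitosis and G1 genes) in each of the 16 library averages (columns, grouped by class), as log2(CPM + 10) minus the gene's mean over the averages. Replication genes are mostly above their mean in the 3 LB EPI libraries and below it in the MB TE and LB TE libraries, and AURKA stands out in Morula replicate 6.

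Between the earlier stages no member passed the test. For EB against Morula, limma called 0 of 47 members at an adjusted p under 0.05, against a background of 0.0797% of the 12540 genes tested. There were 3 members with an unadjusted p under 0.05, which 5% of all genes had, and limma-voom on summed reads also called 0. EB has 1 library average and is assumed to vary like the other classes, so its own spread was not measured. CCNB1, the cyclin that takes CDK1 into mitosis, was at 541 and 462 CPM in Morula, 322 in EB, 127 to 252 in MB ICM and 107 to 123 in LB TE. CCNA2, which serves both S phase and mitosis, was at 44.0 and 39.7 CPM in Morula, 28.4 in EB and at most 23.4 in every later library. The 2 Morula libraries were thus the highest of all 16 for both cyclins, a ranking with no test. The share of all genes with this ranking was not counted. The order also runs across the step where age and library cannot be told apart. RRM2, the small subunit of ribonucleotide reductase, was at 574 CPM in Morula replicate 4 but 292 in replicate 6, within the 144 to 311 of the other classes. CCNE2, a G1/S cyclin, was at 38.3 and 33.6 CPM in Morula and 23.0 in EB, and spread from 2.15 to 39.2 over the 3 MB TE libraries, so the classes overlap.

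AURKA, the kinase that matures centrosomes and builds the spindle, was set by a few cells in Morula. Its average was 2391 CPM in replicate 6 and 473 in replicate 4, while the other 14 averages lay between 99.8 and 343. In replicate 6, 8 of 45 cells held 2417 to 20021 CPM (median 11937), and the next cell held 1446. The line at 2000 CPM was drawn after the values were seen. No cell outside that library exceeded 1463 CPM, and the other 37 cells of replicate 6 averaged 484 CPM, close to replicate 4. NUSAP1, a spindle microtubule bundler, was also high in the 8 cells, at 751 to 3577 CPM against a median of 217 in the other 37. Its Morula averages were 613 CPM in replicate 6 and 185 in replicate 4. RRM2 had a median of 27.8 CPM in the 8 cells and 374 in the others, while CCNB1 had medians of 452 and 402. The 8 cells were shallow, with 4603 to 47951 reads (median 21790) against a median of 121290 in the others, so all of them drop out when 50000 reads are required. The EB and Morula comparison still called 0 members without replicate 6 and with cells of at least 50000 reads.

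**Figure D2:**
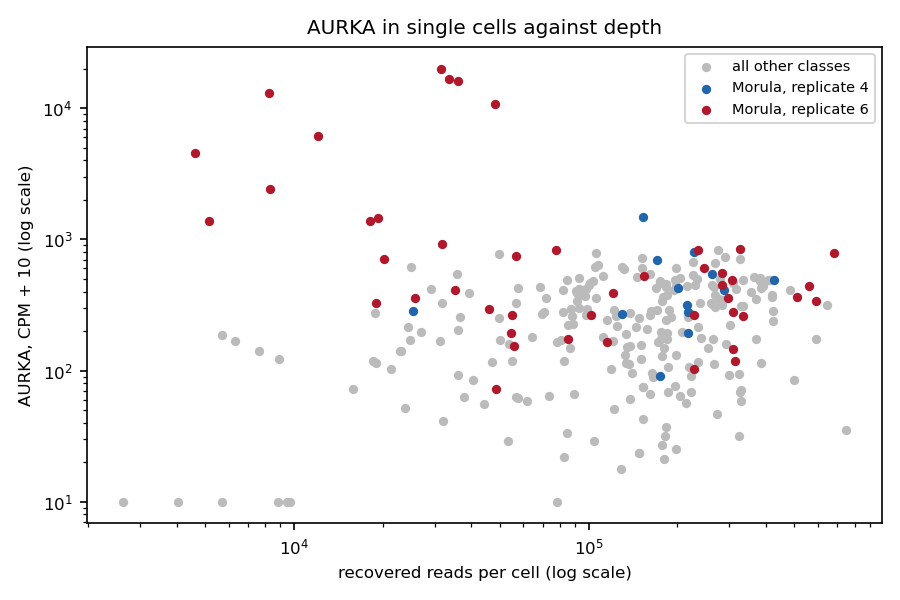
AURKA level of each cell (points, CPM + 10 on a log axis, so cells without a read sit at 10) against the reads of that cell (log axis), for the Morula cells of replicates 4 and 6 and the cells of the other classes. The 8 points above 2000 CPM are all from Morula replicate 6 and all lie at 47951 reads or fewer.

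On day 8 the question is how the trophectoderm differs from the inner cell mass. In MB TE, 7 of 47 members were lower than in MB ICM and 0 were higher, against a background of 4.11% of all genes called lower and 5.97% called higher. The 7 comprised 4 of 20 replication genes (MCM2, MCM5, GINS2 and PCNA), 2 of 19 mitosis genes (TOP2A and NUSAP1) and the cyclin CCNE1. The median log2 change was -0.51 over the replication genes, -0.08 over the mitosis genes and -0.33 over the G1 genes, against -0.04 over all genes tested. For 16 of 47 members every MB TE library lay below every MB ICM library, against a background of 12.3% of genes.

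Day 8 values are given in the order of replicates 1, 2 and 3 for MB TE, with 21, 12 and 3 cells. For MB ICM the order is 1, 2 and 5, with 24, 21 and 5 cells. Each average has the same weight in the fit, whatever its number of cells. Among the helicase subunits, MCM2 was at 98.9, 178 and 67.9 CPM in MB TE and at 184, 258 and 228 in MB ICM. Its log2 change was -1.01 (SE 0.29, adjusted p = 0.0279). MCM5 was at 121, 108 and 164 CPM in MB TE and at 193, 244 and 225 in MB ICM, a log2 change of -0.76 (SE 0.24, adjusted p = 0.0468). Every MB TE library lay below every MB ICM library for both genes. GINS2, a subunit of the complex that joins the helicase at firing, was at 72.3, 82.1 and 93.3 CPM in MB TE and at 178, 197 and 127 in MB ICM. Its log2 change was -0.91 (SE 0.27, adjusted p = 0.0339). PCNA was at 92.5, 148 and 139 CPM in MB TE and at 225, 290 and 256 in MB ICM, and its log2 change was -0.96 (SE 0.24, adjusted p = 0.012). The libraries of both genes did not overlap.

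TOP2A was at 327, 283 and 460 CPM in MB TE and at 819, 634 and 1885 in MB ICM. Its log2 change was -1.39 (SE 0.30, adjusted p = 0.00385), and it was called under every alternative and without each library. The value of 1885 comes from replicate 5, where MB ICM has 5 cells and 1 of them, with only 2633 reads, held 6077 CPM of TOP2A from 16 reads. That cell also held 760 CPM of BUB1B from 2 reads, which put the BUB1B average there at 191 CPM against 56.6 and 30.5 in the other MB ICM libraries. NUSAP1 was at 116, 133 and 69.7 CPM in MB TE and at 408, 282 and 285 in MB ICM, a log2 change of -1.40 (SE 0.38, adjusted p = 0.0217). CCNE1, the cyclin that starts S phase with CDK2, was at 34.8, 16.0 and 18.1 CPM in MB TE and at 86.1, 67.8 and 78.0 in MB ICM. Its log2 change was -1.52 (SE 0.35, adjusted p = 0.00672), and its libraries did not overlap.

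The other 6 day 8 calls each depended on some library. MCM2 was lost without replicates 1, 3 or 5 (adjusted p = 0.0846, 0.147 and 0.0994), MCM5 without 1, 2 or 5 (0.13, 0.349 and 0.0962), and GINS2 without 1 or 2 (0.224 and 0.261). PCNA was lost without replicates 1 or 2 (0.105 and 0.0924), NUSAP1 likewise (0.151 and 0.0865) and CCNE1 without 2 (0.0698). Other settings mattered too. Of 16 alternatives, leaving out a library included, MCM2 lost its call in 9, MCM5 in 8 and GINS2 in 6. NUSAP1 lost it in 5, PCNA in 4 and CCNE1 in 1.

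**Figure D3:**
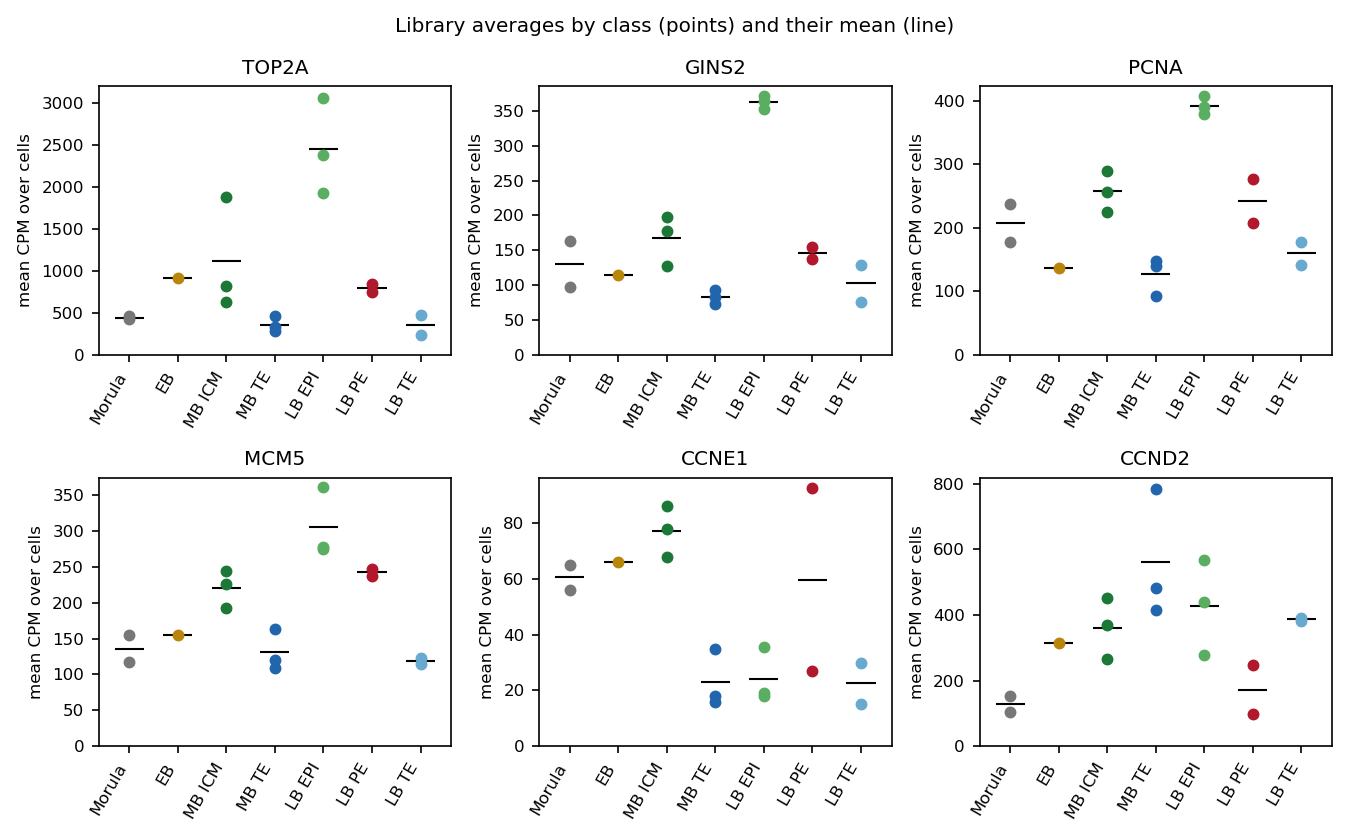
Level of TOP2A, GINS2, PCNA, MCM5, CCNE1 and CCND2 (panels, CPM) in each library average (points) by class, with the class mean as a bar line. TOP2A, GINS2, PCNA and MCM5 are highest in the LB EPI libraries, CCNE1 is at 67.8 CPM or more in MB ICM, and CCND2 is at 97 to 152 CPM in both Morula libraries and in LB PE replicate 3.

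By day 9 LB EPI had more GINS2, POLA1 and TOP2A than MB ICM, and less CCNE1. In this comparison 3 of 47 members were higher, against a background of 3.29%, and 1 was lower, against 1.81%. For 8 of 47 every LB EPI library was above every MB ICM library, against a background of 11.7%. GINS2 was at 364, 353 and 371 CPM in LB EPI, a log2 change of 1.10 (SE 0.27, adjusted p = 0.0171). POLA1, the catalytic subunit of the polymerase that starts each strand, was at 107, 78.7 and 54.3 CPM in LB EPI and at 25.6, 46.98 and 5.76 in MB ICM. Its log2 change was 1.42 (SE 0.37, adjusted p = 0.0279). TOP2A was at 2388, 1926 and 3065 CPM in LB EPI, a log2 change of 1.27 (SE 0.30, adjusted p = 0.0144), with every LB EPI library above every MB ICM library. CCNE1 was at 35.4, 18 and 19 CPM in LB EPI, less than in any MB ICM library, a log2 change of -1.37 (SE 0.35, adjusted p = 0.0253). CCNE1 thus had low levels in MB TE and LB EPI alike, and also in LB TE (29.9 and 15.3 CPM), while LB PE spread from 26.9 to 92.6.

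Each of these 4 calls was lost without some library. CCNE1 and POLA1 were lost without any of replicates 1, 2, 3 and 5 (adjusted p 0.0556 to 0.127 and 0.0622 to 0.131), GINS2 without 2 or 5 (0.0756 and 0.159), and TOP2A without 1 or 2 (0.0787 and 0.213). Of the 20 replication genes, 16 had a fitted change above 0 and 4 below, and GINS2 and POLA1 were the 2 called.

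The widest differences were between LB TE and LB EPI on day 9. In LB TE, 11 of 47 members were lower and 0 higher, against a background of 6.9% of all genes called lower and 8.27% called higher. They were 7 of 20 replication genes (MCM2, MCM5, MCM6, MCM7, GINS2, PCNA and POLA1) and 4 of 19 mitosis genes (BUB1, BUB1B, TOP2A and NUSAP1), and no G1 gene. All 6 helicase subunits had a lower class mean in LB TE. The medians were -0.63 over the replication genes and -0.64 over the mitosis genes on the log2 scale, against -0.10 over the G1 genes. For 25 of 47 members both LB TE libraries lay below all 3 LB EPI libraries, against a background of 23.8% of genes.

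TOP2A had the largest difference of all members. It was at 234 and 468 CPM in LB TE against the 1926 to 3065 of LB EPI, a change of -2.90 on the log2 scale (SE 0.33, adjusted p = 4.46e-06). The gap is also visible cell by cell. TOP2A had a median of 2699 CPM over the 45 LB EPI cells (lowest 532, highest 5135) and 201 over the 31 LB TE cells (lowest 19.6, highest 1306). GINS2 was at 76.2 and 128 CPM in LB TE, a log2 change of -1.76 (SE 0.30, adjusted p = 0.000303). PCNA was at 142 and 177 CPM in LB TE and at 407, 390 and 378 in LB EPI, a log2 change of -1.24 (SE 0.27, adjusted p = 0.00276). None of these libraries overlapped between the classes.

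In the helicase, MCM5 was at 123 and 114 CPM in LB TE and at 275, 362 and 278 in LB EPI, a log2 change of -1.30 (SE 0.26, adjusted p = 0.00166). MCM2 was at 127 and 89.7 CPM in LB TE and at 310, 361 and 269 in LB EPI, a log2 change of -1.41 (SE 0.32, adjusted p = 0.00397). Neither gene overlapped between the classes. MCM6 (70.6 and 45.8 CPM against 153, 91.8 and 132) and MCM7 (161 and 137 CPM against 261, 403 and 197) had log2 changes of -0.97 (SE 0.31, adjusted p = 0.0363) and -0.86 (SE 0.29, adjusted p = 0.0464). POLA1 was at 24.4 and 20.5 CPM in LB TE, a log2 change of -1.35 (SE 0.41, adjusted p = 0.0285). MCM3 was not called, with 112 and 41.8 CPM in LB TE and 122, 383 and 108 in LB EPI, so the classes overlapped. MCM4 was not called either, at 122 and 90.8 CPM against 173, 289 and 159. Their adjusted p was 0.0724 and 0.0602, and both were called lower by limma-voom (adjusted p = 0.00828 and 0.0126), in a fit of only these classes and with cells of at least 50000 reads.

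Among the mitosis genes, BUB1B was at 14.7 and 17.8 CPM in LB TE and at 40.0, 65.2 and 70.9 in LB EPI, a log2 change of -1.46 (SE 0.43, adjusted p = 0.0248). BUB1 was at 36.5 and 30.1 CPM against 62.9, 80.7 and 65.4, a log2 change of -0.91 (SE 0.31, adjusted p = 0.0489). NUSAP1 was at 56.4 and 140 CPM against 439, 204 and 461, a log2 change of -1.79 (SE 0.42, adjusted p = 0.00559). All 3 genes had LB TE libraries below the LB EPI libraries. AURKA, at 99.8 and 201 CPM against 323, 248 and 343, also did not overlap. It missed the threshold here (adjusted p = 0.112), but was called lower by limma-voom (adjusted p = 0.0269) and without replicates 4 or 6 (0.0189 and 0.0178), the Morula libraries described above. BIRC5, a subunit of the chromosomal passenger complex, was at 162 and 152 CPM in LB TE and at 171, 83.5 and 164 in LB EPI, so it overlapped, and the marker MKI67 was at 76.0 and 125 CPM against 138, 66.0 and 68.9 and overlapped too.

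TOP2A, GINS2 and MCM5 were called under every alternative and without each library in this comparison. The other calls were lost without some library: MCM2 without replicate 5 (adjusted p = 0.103), PCNA and NUSAP1 without 3 (0.0784 and 0.0713), POLA1 without 2 or 3 (0.0791 and 0.232), BUB1B without 3 or 5 (0.206 and 0.0652), MCM6 without 1, 2 or 5 (0.051 to 0.368), MCM7 without 1, 2, 3 or 5 (0.0684 to 0.283), and BUB1 without any 1 of the 6 (0.0504 to 0.189). Without replicate 3 or 5, LB TE and LB PE have 1 library each, which is assumed to vary like the other classes.

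Within the trophectoderm no member was called between days 8 and 9. For LB TE against MB TE, limma called 0 of 47 members, against a background of 0.191% of genes, with 1 member at an unadjusted p under 0.05 (5.59% of genes) and 0 called by limma-voom. TOP2A, for example, was at 283 to 460 CPM in MB TE and 234 to 468 in LB TE, and PCNA at 92.5 to 148 and 142 to 177. Whether the trophectoderm difference itself changed from day 8 to day 9 was tested as the difference of the 2 contrasts, a test added after the data were seen. It called 0 members (6 at an unadjusted p under 0.05, against 9.6% of genes, and 0 by limma-voom), against a background of 0.367%. With only cells of at least 50000 reads, TOP2A alone was called (log2 change -1.76, adjusted p = 0.0413). The larger count on day 9 than on day 8 is therefore not shown to be a difference between the days.

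**Figure D4:**
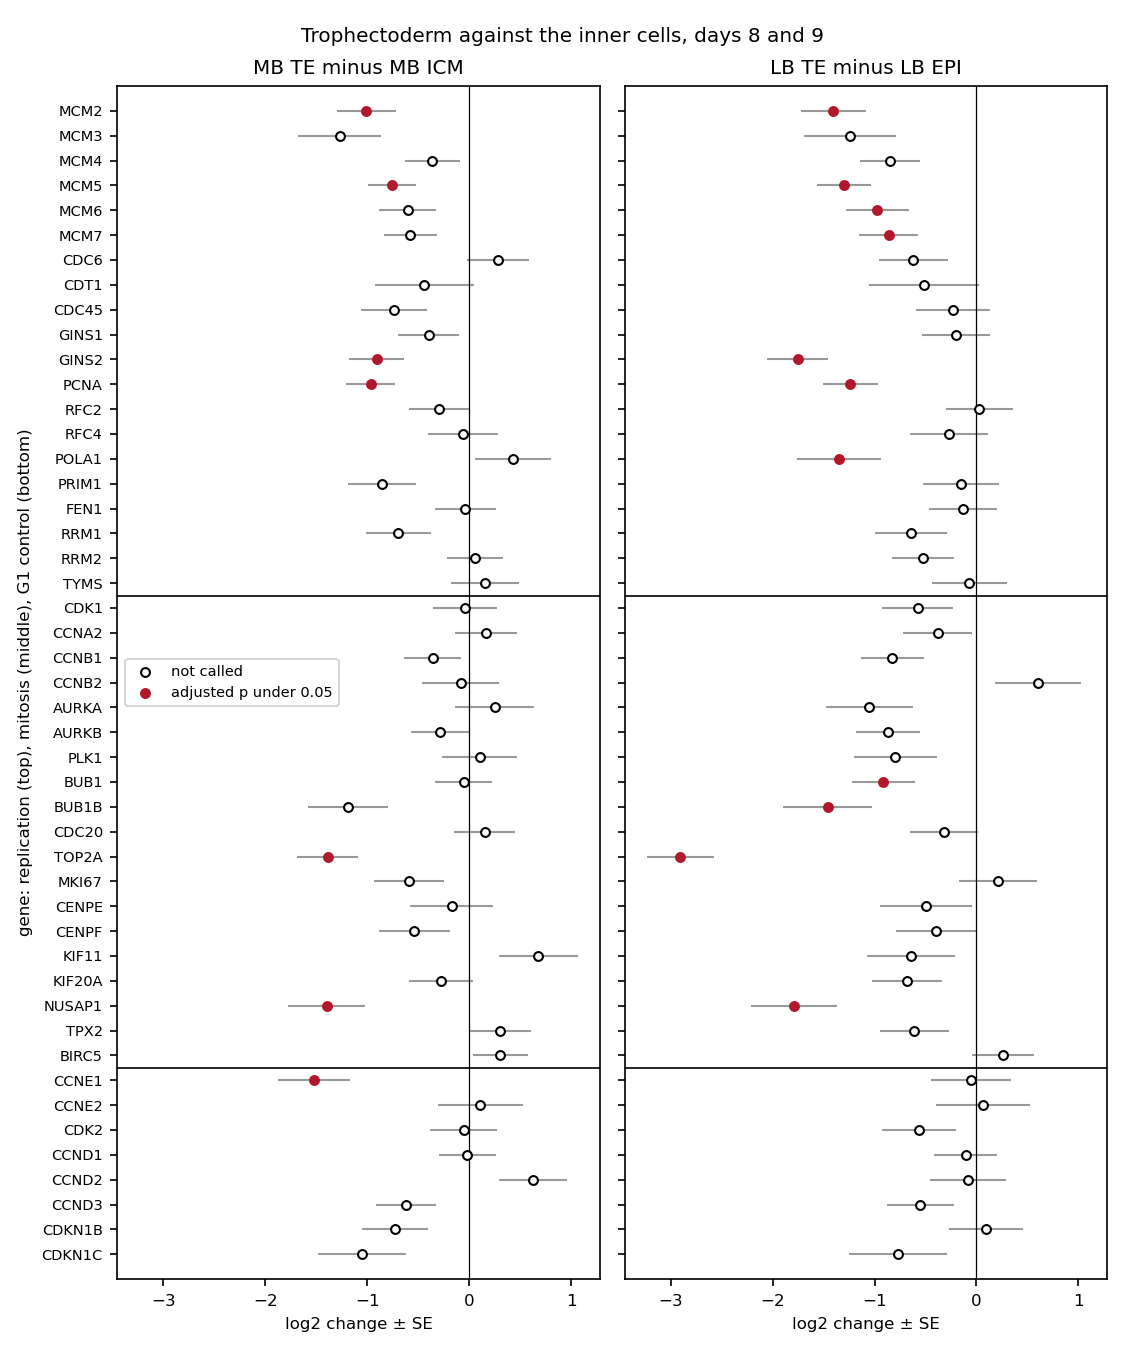
Log2 change of each of the 47 genes between trophectoderm and inner cells, with MB TE minus MB ICM (day 8) and LB TE minus LB EPI (day 9), error bars of 1 SE and filled points for an adjusted p under 0.05. All filled points lie below 0, with TOP2A farthest down on day 9 (-2.90).

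On day 9, LB PE had less TOP2A, GINS2, POLA1 and CCND2 than LB EPI, and more MCM4, MCM5, BUB1B and TOP2A than LB TE. Both comparisons below share the LB PE libraries, and the LB EPI libraries also served the LB TE comparison above. Against LB EPI, 4 of 47 members were lower in LB PE and 0 higher, against a background of 2.41% lower and 2.98% higher. For 11 of 47 both LB PE libraries lay below all LB EPI libraries, against a background of 14.1%. TOP2A was at 742 and 842 CPM in LB PE, below every LB EPI library, with a log2 change of -1.68 (SE 0.33) and an adjusted p of 0.00471, and this call held without each library and under every alternative. GINS2 was at 137 and 155 CPM in LB PE, a log2 change of -1.24 (SE 0.30, adjusted p = 0.0156). POLA1 was at 28.5 and 7.98 CPM, a log2 change of -1.65 (SE 0.41, adjusted p = 0.0206). CCND2, a D cyclin that couples growth signals to G1 kinases, was at 96.8 and 248 CPM in LB PE and at 277, 568 and 439 in LB EPI, a log2 change of -1.34 (SE 0.37, adjusted p = 0.0394). LB PE was below LB EPI in every library for these genes, but the CCND2 call was lost without replicate 3, where its log2 change was -0.45 (adjusted p = 0.653), and without replicate 4 (0.0502). The LB PE average of CCND2 in replicate 5 is raised by 1 cell of 6295 reads with 1271 CPM from 8 reads, while the median of its 9 cells was 31.9 CPM. On summed reads with limma-voom, and with cells of at least 50000 reads, the CCND2 change was -2.51 on the log2 scale. GINS2 and POLA1 were lost without replicates 2, 3 or 5 (0.0564 to 0.104 and 0.0637 to 0.102).

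Against LB TE, 4 of 47 members were higher in LB PE and 0 lower, against a background of 2.46% higher and 3.39% lower. For 14 of 47 both LB PE libraries lay above both LB TE libraries, against a background of 21.6%. MCM4 was at 334 and 206 CPM in LB PE and 122 and 90.8 in LB TE, a log2 change of 1.24 (SE 0.32, adjusted p = 0.0233). MCM5 was at 247 and 237 CPM in LB PE, a log2 change of 0.97 (SE 0.29, adjusted p = 0.0482). BUB1B was at 78.1 and 62.5 CPM, with a change of 1.61 on the log2 scale (SE 0.47, adjusted p = 0.0453), and that of TOP2A was 1.23 (SE 0.36, adjusted p = 0.0451). The libraries of all 4 did not overlap, yet each call was lost without some library: MCM4 without replicates 3 or 5 (adjusted p = 0.141 and 0.101), MCM5 without 1, 2, 3 or 5 (0.0716 to 0.261), BUB1B without 1, 3, 4, 5 or 6 (0.0547 to 0.307), and TOP2A without 1, 2, 3, 4 or 6 (0.0512 to 0.391). None of the 4 was called by limma-voom, without the block, with no filter or in a fit of only the 2 classes. The highest BUB1B cells of LB PE held 351 CPM in replicate 3 and 318 in replicate 5, each from 2 reads. These cells had 5703 and 6295 reads. In replicate 5 the median BUB1B level was 14.7 CPM over the LB PE cells and 13.5 over the LB TE cells. The medians in replicate 3 were 43.1 and 8.03 CPM. CCND2, at 96.8 and 248 CPM in LB PE and 391 and 381 in LB TE, was not called (adjusted p = 0.0716), but limma-voom called it lower (adjusted p = 0.00233). LB PE cells are shallow, and the part of depth in these differences was not tested.

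The G1 genes gave few calls. CCNE1 and CCND2 were called as above, and CCNE2, CDK2, CCND1, CCND3, CDKN1B and CDKN1C in no comparison of the main fit. CCNE1 was called higher in LB PE than in LB EPI by limma-voom (log2 change 1.53, adjusted p = 0.0466). The same held with cells of at least 50000 reads (1.29, limma adjusted p = 0.0351), where LB PE was also above LB TE (1.29, 0.0463). CDKN1C was called lower in MB TE than in MB ICM only without replicate 3 (log2 change -1.26). CCND2 was at 103 and 152 CPM in the Morula libraries, 313 in EB and 265 to 784 over the day 8 libraries, an order that runs across the step where age and library cannot be told apart. CCND1 was at 10.05 CPM or less in every library. With every cell thinned to 20000 reads and 22 shallower cells left out, a read of CCND1 was found in 2.33% of LB EPI cells (95% exact interval 0.0589 to 12.3) to 6.38% of MB ICM cells (1.34 to 17.5), and unthinned in 8% of LB PE cells to 27.0% of MB TE cells. No class here is known to lack the gene, so background reads cannot be told apart from low expression at this depth. The inhibitor CDKN1B was at 2.79 to 44.3 CPM, with its highest value in the 5 cells of MB ICM replicate 5. CDKN1C was at 1.13 to 57.7 CPM and varied within LB PE from 1.13 to 30.2. CDK2 was at 18.3 to 71.8 CPM, highest in Morula replicate 4. CCND3, the remaining D cyclin, was at 18.9 to 24.4 CPM in MB TE and 32.6 to 42.1 in MB ICM, which did not overlap but were not called.

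Summed per cell, both programs were lowest in the trophectoderm classes. The sum of the 20 replication genes had a median of 2897 CPM over LB EPI cells, 2251 in Morula, 2225 in MB ICM, 2027 in EB, 2015 in LB PE, 1456 in LB TE and 1400 in MB TE. The highest MB TE cell was at 2049 CPM, under the LB EPI median. The sum of the 19 mitosis genes was also highest in LB EPI, with a median of 5311 CPM, then 3926 in EB, 3520 in Morula, 3263 in MB ICM, 2933 in LB PE, 1712 in MB TE and 1255 in LB TE. With TOP2A and AURKA left out, a choice made after their values were seen, the mitosis sum had a median of 2745 CPM in EB, 2559 in Morula, 2152 in MB ICM, 1910 in LB EPI, 1881 in LB PE, 1488 in MB TE and 1060 in LB TE. MB TE and LB TE had the lowest medians in all 3 sums, while LB EPI had the highest mitosis median only with TOP2A and AURKA included. These reduced mitosis sums spread widely within a class, from 192 to 3938 CPM over LB TE cells, and the replication sum of those cells from 883 to 2216. A library average does not tell apart fewer cells in a phase from less RNA per such cell.

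Within a library and class the replication sum and the reduced mitosis sum had a Spearman's rho below 0 in 10 of 14 groups of at least 9 cells and above 0 in 4, given here as a description over cells that share a library. It was -0.80 over the 11 LB EPI cells of replicate 2, -0.63 over the 12 MB TE cells of replicate 2, -0.52 over the 14 LB PE cells of replicate 3 and -0.37 over the 35 EB cells of replicate 4. Other groups of the same classes differed, with -0.07 over the 24 LB EPI cells of replicate 5, 0.22 over the 21 MB TE cells of replicate 1 and 0.12 over the 9 LB PE cells of replicate 5. The 9 LB TE cells of replicate 5 had a rho of 0.62 but a Pearson's r of 0.08. The reduced mitosis sum also moved with depth in some classes, with a rho of 0.43 against reads over the 51 MB ICM cells and 0.02 over the 31 LB TE cells.

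**Figure D5:**
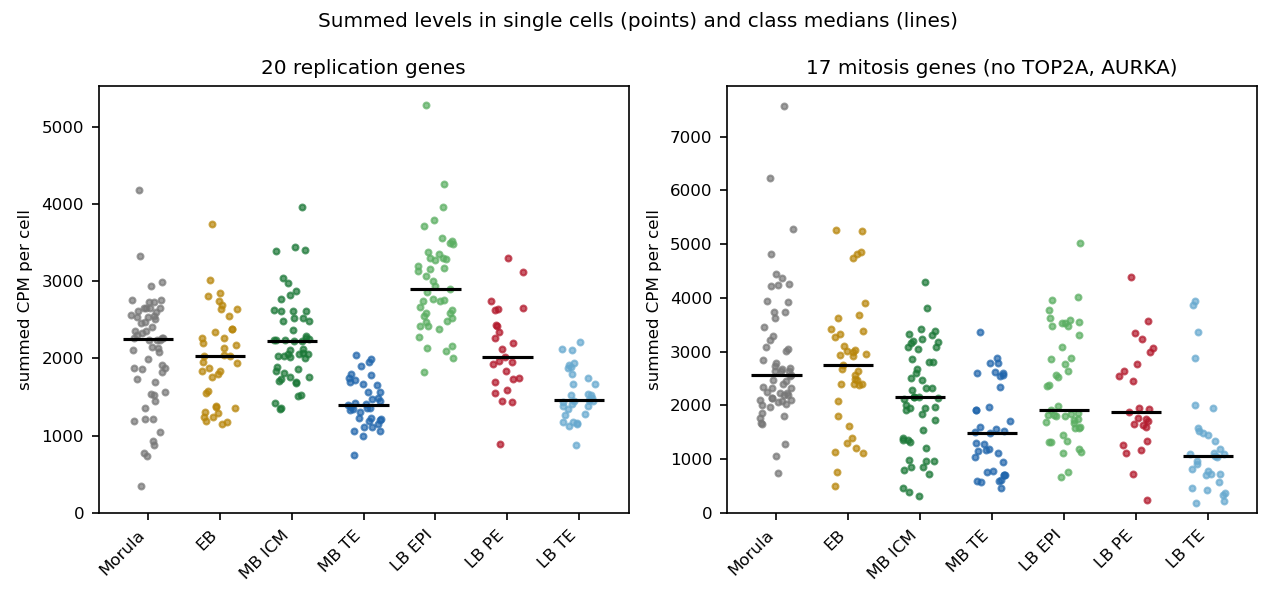
Sum of the 20 replication genes and sum of the mitosis genes without TOP2A and AURKA in each cell (points, CPM) by class, with the class median as a line. The replication sum is highest in LB EPI (median 2897) and lowest in MB TE (1400), and the mitosis sum is lowest in LB TE (1060).

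The other genes of the pathways, 109 listed by name, were counted in the same fit: 44 of 44 replication genes, 39 of 40 mitosis genes and 20 of 25 control genes were tested. In EB against Morula and in LB TE against MB TE none of these 103 was called. An unadjusted p under 0.05 was reached by 5 and 4 of them, and limma-voom called 0 and 1. In MB TE against MB ICM, 7 of 44 replication genes were lower, against 4.11% of all genes. ORC1, the largest subunit of the origin recognition complex, was at 15.3 ± 4.12 CPM in MB TE and 55.0 ± 5.77 in MB ICM (SD, n = 3), a log2 change of -1.40 (adjusted p = 0.00162). RFC1, the large clamp loader subunit, had a log2 change of -1.17 (adjusted p = 0.00577, 0.186 without replicate 2) and MCM8 of -1.53 (0.0144, 0.116 and 0.087 without replicates 3 and 5). MCM8 was low and uneven, at 2.26 ± 2.14 CPM in MB TE and 34.2 ± 36.2 in MB ICM. Its log2 change was -0.88 without replicate 5. None of 44 was higher. In the mitosis list 0 of 39 were lower and 2 were higher, a smaller share than the 5.97% of all genes. These were ANLN and KIF23, both needed for the division of the cytoplasm. ANLN was at 180 ± 39.2 CPM in MB TE and 68.0 ± 28.6 in MB ICM, a log2 change of 1.26 (adjusted p = 0.0103, 0.108 without replicate 2). KIF23 was at 190 ± 48.0 and 89.2 ± 14.0 CPM, a log2 change of 0.98 (adjusted p = 0.0186, 0.0675 to 0.117 without replicates 2, 3 or 5). SKP2, which targets CDKN1B for destruction, was the 1 control gene called, at -1.13 (adjusted p = 0.0478), and was lost without any 1 library (0.0536 to 0.165).

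In LB TE against LB EPI, 11 of 39 other mitosis genes were lower and 0 higher, against 6.9% and 8.27% of all genes. The condensin subunit NCAPG was at 21.5 ± 10.9 CPM in LB TE (SD, n = 2) and 158 ± 36.1 in LB EPI (n = 3), a log2 change of -2.48 (adjusted p = 0.000172). The spindle kinesin KIF15 had a log2 change of -2.11 (adjusted p = 0.00142) and SGO2, which protects centromere cohesion, of -1.59 (0.00324). Of the other replication genes 6 of 44 were lower and 0 higher, against the same shares of all genes. CLSPN, a fork checkpoint adaptor, had a log2 change of -1.51 (adjusted p = 0.00212, 0.0691 without replicate 5), DUT, which keeps uracil out of DNA, of -1.16 (0.00962, 0.0904 without 5) and ORC1 of -1.12 (0.0144, 0.0802 without 3 and 0.16 without 5). The checkpoint kinases CHEK1 (-1.66, adjusted p = 0.00212) and WEE1 (-1.17, 0.02, and 0.115 and 0.14 without replicates 3 and 5) were the 2 control genes called.

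In LB EPI against MB ICM, 3 of 39 other mitosis genes were higher, against 3.29% of all genes: NCAPG by 2.18 on the log2 scale (adjusted p = 0.000831), SPC25 by 1.04 (0.0326) and CKS2 by 1.14 (0.0493). WEE1 was higher by 1.08 (0.0405), and no replication gene was called. SPC25 was lost without replicates 1, 2 or 5 (0.0617 to 0.257), and CKS2 and WEE1 without 1, 2, 3 or 5 (0.117 to 0.281 and 0.0658 to 0.294). RFC1 stood out in LB PE, at 883 ± 59.8 CPM (SD, n = 2) against 171 ± 30.1 in LB EPI (n = 3) and 115 ± 21.1 in LB TE (n = 2). Its log2 changes were 2.31 (adjusted p = 5.79e-05) and 2.85 (1.5e-05), and both were called without each library. It was the 1 replication gene of 44 higher in LB PE than in LB EPI, against 2.98% of all genes. Between the same classes NCAPG was lower in LB PE, with a log2 change of -1.75 (adjusted p = 0.0112, 0.0669 and 0.116 without replicates 3 and 5). It was the 1 mitosis gene of 39 called lower there, against 2.41% of all genes. Against LB TE, 2 of 44 replication genes and 2 of 39 mitosis genes were higher in LB PE, against 2.46% of all genes. Besides RFC1, these were ORC1 (log2 change 1.70, adjusted p = 0.00259, 0.0619 without replicate 5), CDCA5 (1.41, 0.0322, 0.0501 to 0.194 without 1, 3 or 5) and SGO2 (1.29, 0.0482, 0.0645 to 0.541 without 1, 2, 3 or 5).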

How the data were processed

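Per the submitters' processing notes the tools were Trim Galore, HISAT2, featureCounts and Seurat, with the build ARS-UCD1.2. The sources used here give no versions, settings or cell filters, nor whether molecular identifiers were counted. The deposited values are on a natural log scale, ln(1 + value per 10000), as the authors made them, and whole reads were recovered for 100% of values within 0.1 reads.

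Levels were averaged per library and class and transformed as log2(mean CPM + 10), which understates changes of low genes. Genes reaching 10 CPM in as many averages as the smallest class has were tested (12540). limma 3.58.1 (trend, robust) in R 4.3.3 with statmod 1.5.0 fitted all 7 classes at once, with the library as a random block (consensus correlation 0.18). A library number marks cells of 1 pool. P-values are Benjamini-Hochberg adjusted over all genes tested, called under 0.05. They rest on the spread among libraries alone, and that may be technical. Intervals cover counting error only. No doublet caller was run, and the 2 cells without values and 2 libraries with BE3 RNA were not analysed here.

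The members and lists were chosen with earlier results of these data known. Called members are described by role, and up to 3 called genes per other list, comparison and direction by smallest adjusted p. The roles follow common knowledge. The fit was also run on simulated data, and its outcome there is not given or used as support here. All 47 symbols matched a RefSeq gene table of ARS-UCD2.0, used for names only.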

Additional observations from a re-analysis of the deposited data

Results flagged for a closer look

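NCAPG, a condensin subunit on the list of other mitosis genes, differed between days in its trophectoderm difference. It was at 39.0, 25.05 and 38.4 CPM in MB TE and at 47.8, 23.8 and 16.3 in MB ICM, which overlap, and at 13.8 and 29.2 in LB TE and 118, 188 and 169 in LB EPI, which do not. The log2 change of LB TE against LB EPI minus that of MB TE against MB ICM was -2.68 (SE 0.53, limma adjusted p = 0.0297). This test was added after the data were seen. The call was lost without replicates 1, 2, 3 and 5 (adjusted p = 0.0807, 0.0952, 0.571 and 0.0982), at a pseudocount of 1 CPM (0.061), with no filter (0.104), with averages of at least 5 cells (0.083) and with no replicate block (0.0871).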

How the results depend on the processing

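No called change of a member reversed under any alternative: 335 recomputed values kept their call and 145 lost it. EB against Morula and LB TE against MB TE gave 0 called members throughout, and EB against Morula gives no value without replicate 4, the only EB library. Without the replicate block the calls were 4 for MB TE against MB ICM (7 with it), 6 for LB TE against LB EPI (11) and 0 for LB PE against LB TE (4). With no filter on low values, which tests more genes, they were 3, 6 and 0 for these and 1 for LB EPI against MB ICM (4) and 2 for LB PE against LB EPI (4). A mean of log2 values gave 3 for MB TE against MB ICM and 7 for LB PE against LB EPI, and TMM scaling, added after seeing the data, gave 2 for MB TE against MB ICM and 2 for LB PE against LB TE. For LB PE against LB TE a pseudocount of 50 CPM gave 2, limma-voom 1 (CCND2, lower) and a fit of only the 2 classes 0, while that fit gave 18 for LB TE against LB EPI. Cells of at least 50000 reads gave 1 for the change of the trophectoderm difference (0). Leaving out each library gave 2 to 7 for MB TE against MB ICM, 0 to 4 for LB EPI against MB ICM, 5 to 11 for LB TE against LB EPI, 2 to 4 for LB PE against LB EPI and 0 to 2 for LB PE against LB TE. TMM scaling moved the split of all genes called in MB TE against MB ICM from 749 higher and 515 lower to 905 and 393. The cause was not tested for these counts. Classes of 1 to 3 libraries and the shallow LB PE cells limit what could be called.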

Other observations

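The 8 Morula cells of replicate 6 with over 2000 CPM of AURKA also held transcripts known from oocytes. These genes were chosen after their values were seen. Not every oocyte gene looked at was high there: ZP3, of the egg coat, had a median of 0 CPM (highest 59.6) in the 8 cells and 3.92 (highest 584) in the other 37. BTG4, an adaptor of maternal mRNA decay, was at 242 to 10194 CPM in the 8 cells (median 6010), with a median of 16.2 in the other 37 cells of that library (highest 3083) and at most 9.21 in the 13 cells of replicate 4. MOS, the kinase that holds the egg in meiosis, had a median of 1214 CPM in the 8 cells, 0 in the other 37 (highest 52.7) and at most 11.5 in replicate 4. EIF4E1B, an oocyte cap-binding protein, had a median of 2236 CPM against 8.92 in the other 37, and it was listed at 0 in all 13 cells of replicate 4. The oocyte linker histone H1FOO had a median of 512 CPM against 0, and CPEB1, which controls poly(A) tails of stored mRNA, 915 against 0. DPPA3, a maternal factor, had a median of 1414 CPM against 175 in the other 37 and 170 in replicate 4. Among the replication and mitosis genes CDC20 and KIF20A had medians of 0 CPM in the 8 cells against 136 and 171 in the other 37. Mitosis genes went both ways, with BIRC5 and CENPF at medians of 258 and 339 CPM in the 8 cells against 164 and 261. The mitosis sum without TOP2A and AURKA, which includes NUSAP1, had a median of 3517 CPM in the 8 cells against 2470. The sum of the replication genes had a median of 1787 CPM against 2233. GINS2 and MCM4 were the only replication genes with a higher median in the 8 cells, at 436 against 64.6 CPM and 232 against 148. The 8 cells had a median of 4060 detected genes and the other 37 of 7385.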
